A study of Mus musculus with 4 samples.

Results

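The contractile genes of smooth muscle described here are Acta2, Actg2, Tagln, Myh11, Des, Cnn1, Myl9, Tpm1, Tpm2 and Cald1, known in the testis from peritubular myoid cells. They were taken by symbol from the deposited table, which held 1 row for each of the 10 genes among 31600 features. Long RNA of spermatogonial stem cells, which sustain sperm production in the mouse, had been sequenced as a control group (2 libraries, labelled wild type) and a differentiation group (2 libraries). The genotype field of the second group reads "Differentiation", and the labels leave out the strain, age, culture, agent and time behind it. They also do not state whether libraries come from distinct cultures or mice, so p-values measure only the spread between these libraries, which may be technical.

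Peritubular myoid cells form the contractile wall of the seminiferous tubule, and in that wall they lie outside the germ cells and the Sertoli cells. In smooth muscle, filaments of alpha and gamma smooth muscle actin slide along the smooth muscle myosin heavy chain when a calcium- and calmodulin-dependent kinase phosphorylates the regulatory light chain. Tropomyosin, caldesmon and calponin sit on the thin filament and tune this cycle, transgelin cross-links actin, and desmin filaments tie the contractile units together. Transcription of these genes is known to depend on serum response factor (SRF), which binds the CArG box, and on its coactivators myocardin and the myocardin-related factors. Acta2, Tagln, Tpm1, Cald1 and Myl9 are also made by fibroblasts, whereas Myh11, Cnn1, Actg2 and Des are more restricted to muscle.

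The promoters of the members that the RefSeq table held were read for the CArG box, the site through which SRF is known to act on smooth muscle genes. The table (GRCm38.p6) gave 8 windows of 7 members, Acta2, Cald1, Cnn1, Des, Myl9, Tpm1 and Tpm2, while Actg2, Tagln and Myh11 were not searched, and the 250 bases before the annotated start were searched. The CArG box has the pattern CCNNNNNNGG with all 6 inner bases A or T, and reads the same way on both strands. A looser CArG-like match with at least 5 of the 6 inner bases A or T was also counted. Of all 32851 windows 1.47% held a CArG box and 8.59% held a box or a looser match. Of the 7 members searched, Myl9 and Acta2 had a window with either, and so did 4 of the 10 paralogs searched. The following runs of 30 bases are shown 5′ to 3′ on the strand of the gene, with the match in capitals, for these 2 members and for 2 paralogs whose windows held a CArG box, Cnn2 and Actg1.
Myl9, CArG box, chr2:156775293-156775322, plus strand: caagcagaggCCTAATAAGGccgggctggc
Myl9, CArG-like, chr2:156775355-156775384, plus strand: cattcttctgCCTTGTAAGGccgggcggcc
Acta2, CArG-like, chr19:34255438-34255467, minus strand: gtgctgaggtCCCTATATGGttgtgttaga
Acta2, CArG-like, chr19:34255388-34255417, minus strand: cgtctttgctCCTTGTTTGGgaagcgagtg
Cnn2, CArG box, chr10:79988534-79988563, plus strand: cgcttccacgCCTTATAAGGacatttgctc
Actg1, CArG box, chr11:120348566-120348595, minus strand: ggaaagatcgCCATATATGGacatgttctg
The matches of Myl9 began 161 and 99 bases before its RefSeq start, and those of Acta2 began 84 and 34 bases before its own. Of all windows 0.67% held 2 or more matches, loose or strict. GENCODE M21 draws an exon of Acta2 across both Acta2 matches, so the annotations differ on where transcription begins. Of the 4 genes printed, Acta2, Myl9 and Cnn2 fell in differentiation, and Actg1 was not called (log2 change -0.08 ± 0.05, SE; adjusted p = 0.263 by limma). A match describes letters only, and binding was not measured.

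The depth scale recovered from the FPKM values was 19461725 and 20650241 fragments for the control libraries and 17772008 and 20363284 for the differentiation libraries. It is the divisor behind FPKM and was not checked against a total of reads. Features with ribosomal-RNA-like sequence took 20.8% to 22.6% of the fragments in control and 17.7% to 18.3% in differentiation. Markers of undifferentiated spermatogonia were present in control: their summed level over 18 genes was 323.3 to 324.8 FPKM (fragments normalised for exon length and library depth). In differentiation it was 130.4 to 133.0 FPKM. Uchl1 alone gave a mean of 137.8 FPKM in control and 60.72 FPKM in differentiation. By the test described next, 14 of the 18 were called lower and 1 higher. The latter was Id4, with means of 2.95 FPKM in control and 12.4 FPKM in differentiation. Of 23138 features tested with limma on log2(FPKM + 1), 56.6% were called at an adjusted p under 0.05, 27.0% lower in differentiation and 29.6% higher. Among protein-coding features these shares were 66.5%, 34.0% and 32.5%. The balance of calls depended on scaling: 6246 were lower and 6848 higher as deposited, 7266 and 6064 after median centring, and 7601 and 5792 after quantile normalization.

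Of the 10 contractile genes, 6 fell, 1 rose and 3 were not called, where 56.6% of all features were called, 27.0% lower and 29.6% higher. The groups did not overlap in any of the 10, with 8 lower and 2 higher, as for 79.9% of all features, 39.1% lower and 40.9% higher. All 10 had a mean of at least 0.5 FPKM and so were tested, Des only just, with 0.502 FPKM. The median log2 fold change of the 10 was -0.67, beside 0.01 over all features tested. The 5 genes above 10 FPKM in control, Acta2, Tpm1, Cald1, Tagln and Myl9, fell to between 40.2% and 50.3% of their control level. Of the features whose mean reached 5 FPKM, 71.6% were called, 32.8% lower and 38.8% higher. The genes more restricted to muscle were low in all 4 libraries: Actg2 rose, and Myh11, Cnn1 and Des were not called. Of these 3, Des was at 56.3% of its control level, Myh11 at 86.0% and Cnn1 at 170%. Between means of 0.5 and 2 FPKM, 40.5% of features were called, 20.0% lower and 20.4% higher. No library held more than 2.05 FPKM of any of these 4. By mean level they stood between the 26.0 and 38.8 percentiles of protein-coding genes in control. In differentiation they stood between the 18.8 and 40.7 percentiles.

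**Figure D1:**
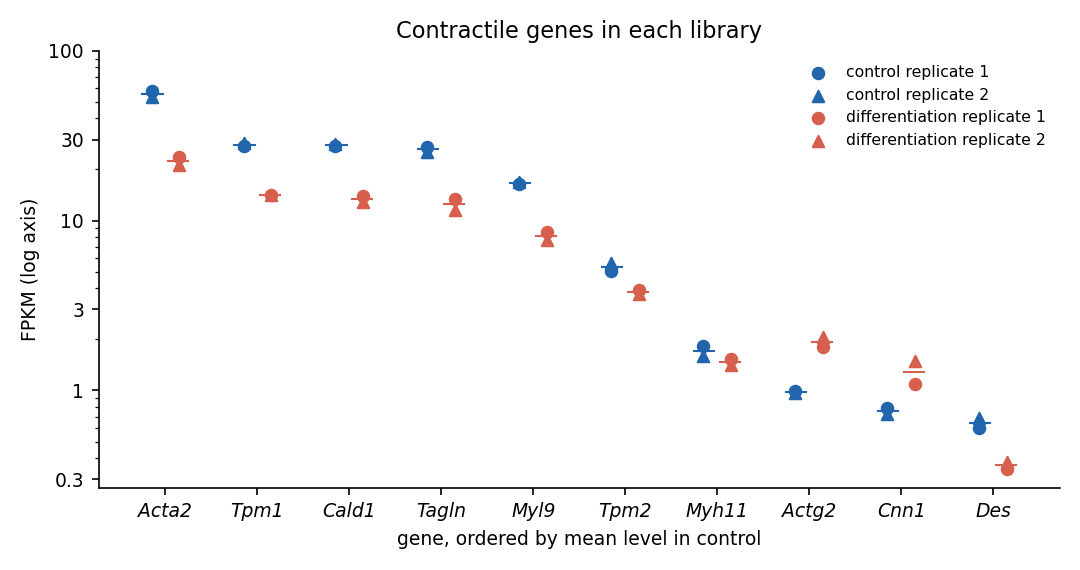
Level of each contractile gene in FPKM (log axis) in the 2 control and 2 differentiation libraries, with group means as short lines. The 5 genes above 10 FPKM in control, from Acta2 to Myl9, sit at 40.2% to 50.3% of that level in differentiation, while Actg2 and Cnn1 lie higher there than in control.

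Thin-filament actins come first. Acta2 (ENSMUSG00000035783), alpha smooth muscle actin, lies on GRCm38 chromosome 19 at 34241090 to 34255590, minus strand, and spans 10 merged exons in GENCODE M21. It was at 58.0 and 53.7 FPKM in the control libraries and at 23.8 and 21.1 FPKM in the differentiation libraries. Both differentiation libraries lay well below both control libraries, and Acta2 was the highest member in every library. The means of 55.9 ± 3.01 and 22.5 ± 1.87 FPKM (SD, n = 2 per group) differed 2.49-fold, with a log2 change of -1.28 ± 0.07 (SE) and an adjusted p by limma of 0.000553. In bulk RNA, fewer cells of a type and less RNA per cell cannot be told apart, and that holds for every value here.

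Actg2 (ENSMUSG00000059430), gamma smooth muscle actin of enteric muscle, lies on chromosome 6 at 83512905 to 83536265, minus strand, with 11 merged exons. It was at 0.990 and 0.964 FPKM in control and rose to 1.81 and 2.05 FPKM in differentiation. The groups did not overlap and their means differed 1.97-fold, with a log2 fold change of 0.57 on the log2(FPKM + 1) scale (SE 0.10; limma adjusted p = 0.0111). These levels rest on 30 and 31 fragments in control and on 50 and 65 in differentiation. Without control replicate 1, control replicate 2 or differentiation replicate 2 the call ended (limma adjusted p = 0.0540, 0.0568 and 0.0525), with log2 fold changes of 0.58, 0.56 and 0.51. Actg2 and Acta2 code for nearly the same protein, and the labels do not state how reads were divided between near-identical actin copies. As a share of Acta2, Actg2 was at 1.71% and 1.80% in control and 7.60% and 9.69% in differentiation.

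Myosin is made of heavy and light chains. Myh11 (ENSMUSG00000018830), the smooth muscle myosin heavy chain and the most specific marker of the lineage, lies on chromosome 16 at 14194535 to 14291372, minus strand, with 43 merged exons. It was at 1.83 and 1.58 FPKM in control and 1.53 and 1.41 FPKM in differentiation. The groups came close to touching, and the log2 fold change of -0.13 (SE 0.10) did not pass (limma adjusted p = 0.329). Myl9 (ENSMUSG00000067818), the regulatory light chain, lies on chromosome 2 at 156775420 to 156781658, plus strand, with 4 merged exons. Its level was 16.5 and 16.9 FPKM in control and 8.62 and 7.69 FPKM in differentiation. That 2.05-fold difference was far wider than the spread within groups, with a log2 change of -0.95 ± 0.06 (SE) and an adjusted p by limma of 0.00082. On the FPKM scale, which divides by length, the light chain gene stood far above the heavy chain gene in every library.

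Of the thin-filament regulators, Tpm1 (ENSMUSG00000032366), the major tropomyosin of muscle and of many other cells, lies on chromosome 9 at 67022590 to 67049406, minus strand, with 13 merged exons. It was at 27.4 and 28.6 FPKM in control and 14.1 and 14.1 FPKM in differentiation. The differentiation libraries were nearly equal, with a log2 change of -0.94 ± 0.04 (SE) and an adjusted p by limma of 0.000235. Tpm2 (ENSMUSG00000028464), beta tropomyosin, lies on chromosome 4 at 43514711 to 43523765, minus strand, with 9 merged exons. It was at 5.05 and 5.61 FPKM in control and 3.91 and 3.71 FPKM in differentiation. This was the smallest of the 6 decreases, 1.40-fold, with a log2 change of -0.40 ± 0.08 (SE) and an adjusted p by limma of 0.0152. The call ended without control replicate 2, differentiation replicate 1 or differentiation replicate 2 (limma adjusted p = 0.0737, 0.0657 and 0.0836).

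Cald1 (ENSMUSG00000029761), caldesmon, an inhibitor of actomyosin activity, lies on chromosome 6 at 34598500 to 34775473, plus strand, with 16 merged exons. Its level was 27.5 and 28.4 FPKM in control and 13.9 and 12.9 FPKM in differentiation. The groups lay far apart, with a log2 change of -1.01 ± 0.05 (SE) and an adjusted p by limma of 0.000413. Tpm1 and Cald1 give muscle and non-muscle isoforms from the same gene, and a level per gene does not separate them. Their merged exons sum to 6485 and 12041 bases, more than any single transcript is likely to hold, so their FPKM may understate the number of transcripts beside compact genes such as Myl9 with 1162 bases.

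Cnn1 (ENSMUSG00000001349), calponin 1, a late marker of smooth muscle, lies on chromosome 9 at 22099216 to 22109630, plus strand, with 8 merged exons. It was at 0.789 and 0.726 FPKM in control and 1.09 and 1.49 FPKM in differentiation. Both differentiation libraries were above both control libraries, yet the log2 fold change of 0.38 (SE 0.13) did not pass (limma adjusted p = 0.0673). Fragments numbered 42 and 41 in control and 53 and 83 in differentiation. Only limma-voom on the recovered fragments called it (adjusted p = 0.0156), a method that called 62.4% of features, 31.4% lower and 31.0% higher.

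Transgelin and desmin complete the list. Tagln (ENSMUSG00000032085), transgelin or SM22-alpha, lies on chromosome 9 at 45929619 to 45936058, minus strand, with 5 merged exons. It was at 27.3 and 25.3 FPKM in control and 13.3 and 11.6 FPKM in differentiation. The groups were well separated, with a log2 change of -1.02 ± 0.08 (SE) and an adjusted p by limma of 0.00124. Of its 1988 exonic bases 1241 are shared with Gm48529, an antisense gene, and 108 with Pcsk7 on the opposite strand. The labels do not state the use of strand in counting, so antisense reads could be included.

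Des (ENSMUSG00000026208), desmin, the intermediate filament of muscle, lies on chromosome 1 at 75360329 to 75368579, plus strand, with 8 merged exons. It was the lowest member, at 0.602 and 0.684 FPKM in control and 0.345 and 0.379 FPKM in differentiation. The differentiation libraries were lower, but the log2 fold change of -0.27 (SE 0.09) did not pass (limma adjusted p = 0.072). On the scale of group means without the added 1, the log2 ratio was -0.83, since the pseudocount compresses low genes. With a pseudocount of 0.1 the log2 fold change was -0.68 and did not pass either (limma adjusted p = 0.0774). The call was made after median centring, after quantile normalization, without an intensity trend and with limma-voom (limma adjusted p = 0.0373, 0.0208, 0.0271 and 0.0186). It was not made without the filter on low values or with the replicate block (limma adjusted p = 0.0554 and 0.119). Leaving out each library in turn gave log2 fold changes of -0.31 to -0.23 for Des, which was not called in any of those fits. Its fragments numbered 44 and 53 in control and 23 and 29 in differentiation, and 220 exonic bases are shared with the antisense gene Gm15179.

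**Figure D2:**
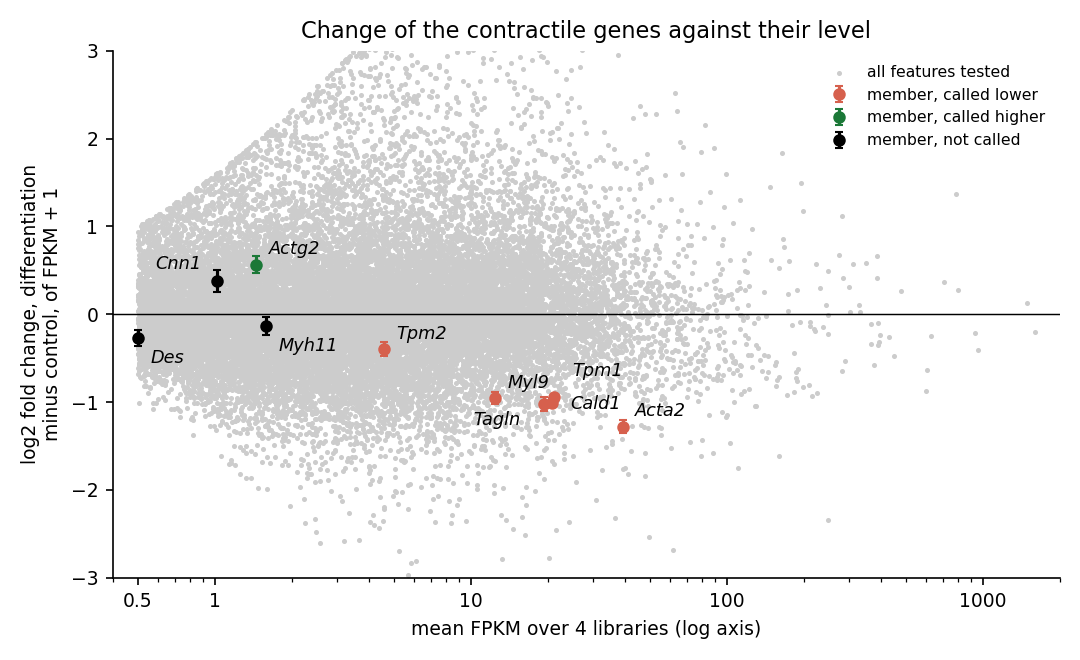
Log2 fold change of FPKM + 1, differentiation minus control, against mean FPKM over the 4 libraries (log axis), for all features tested (grey; 259 lie outside the plotted range) and the 10 contractile genes with their SE. Acta2, Tpm1, Cald1, Tagln and Myl9 lie between -1.28 and -0.94, and the 4 members with a mean under 2 FPKM lie between -0.27 and 0.57.

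The authors' deposited table gave log2 fold changes of -1.32 for Acta2, -1.08 for Tagln, -1.06 for Cald1, -1.04 for Myl9, -0.99 for Tpm1 and -0.49 for Tpm2. In the authors' deposited table these 6 had adjusted p under 0.05, and so did Actg2, at 0.98 (adjusted p = 0.0248). Myh11, Cnn1 and Des were not called there (adjusted p = 0.352, 0.0590 and 0.0984 in the authors' deposited table). That table called 42.3% of its 31600 features, 20.3% lower and 22.0% higher, and it rests on the same 4 libraries.

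The balance among the 10 genes shifted with these changes. Their summed level was 166.0 and 162.5 FPKM in control and 82.5 and 76.4 FPKM in differentiation. Acta2 made up 34.9% and 33.1% of the sum in control and 28.8% and 27.7% in differentiation, lower in both differentiation libraries. Myh11, Actg2, Cnn1 and Des together made up 2.54% and 2.44% in control and 5.78% and 6.97% in differentiation. These shares are descriptive and were not tested.

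Against other protein-coding genes, Acta2 stood at the 98.3 percentile of mean level in control and the 90.6 percentile in differentiation. Tpm1, Cald1, Tagln and Myl9 stood between the 87.2 and 94.5 percentiles in control and between the 69.1 and 82.1 percentiles in differentiation. Myh11, Actg2, Cnn1 and Des stood between the 26.0 and 38.8 percentiles in control. In order of control level, Tpm1 and Cald1 did not differ beyond their spread (28.0 ± 0.837 and 27.9 ± 0.594 FPKM, SD, n = 2). Tagln came next at 26.3 ± 1.37 FPKM (SD, n = 2), with both control libraries below those of Tpm1 and Cald1.

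Among the paralogs of these genes in other cells, 13 of 17 tested fell and 2 rose, with a median log2 fold change of -0.70. Of protein-coding features 34.0% were called lower and 32.5% higher. Actb, cytoplasmic beta actin, was at 776 and 776 FPKM in control and 427 and 417 FPKM in differentiation (log2 fold change -0.88, SE 0.04; limma adjusted p = 0.00031). Vim, the intermediate filament of mesenchymal cells, dropped from 131 ± 3.13 to 60.1 ± 3.52 FPKM, and Myh9, a non-muscle myosin heavy chain, from 37.9 ± 0.282 to 22.5 ± 1.08 FPKM (SD, n = 2 per group). Tagln2, Tpm4, Tpm3, Myl12a and Myl12b also fell, with log2 fold changes from -0.81 to -0.45. Myh10, another non-muscle myosin, rose by 0.24 and the light chain gene Myl6b by 0.42 on the log2 scale. The skeletal and cardiac actins Acta1 and Actc1 were under 0.5 FPKM in every library and were not tested.

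Set beside its paralogs, each actin or calponin gave a different value. Acta2 was at 7.48% and 6.92% of the Actb level in control and 5.58% and 5.07% in differentiation. Cnn1 was at 3.09% and 2.95% of the level of Cnn2, the calponin of non-muscle cells, in control and at 12.3% and 16.3% in differentiation. Cnn2 itself fell, from 25.1 ± 0.677 FPKM in control to 8.99 ± 0.192 FPKM (SD, n = 2 each), with a log2 change of -1.38 ± 0.04 (SE) and an adjusted p by limma of 0.000155. Vim and Des showed log2 fold changes of -1.11 and -0.27. Myh11 stood at 4.85% and 4.16% of Myh9 in control and 6.57% and 6.48% in differentiation. Against Myh10 the order was the opposite, with 14.1% and 12.1% in control and 9.92% and 9.03% in differentiation. None of these differences between a member and its paralog was tested.

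**Figure D3:**
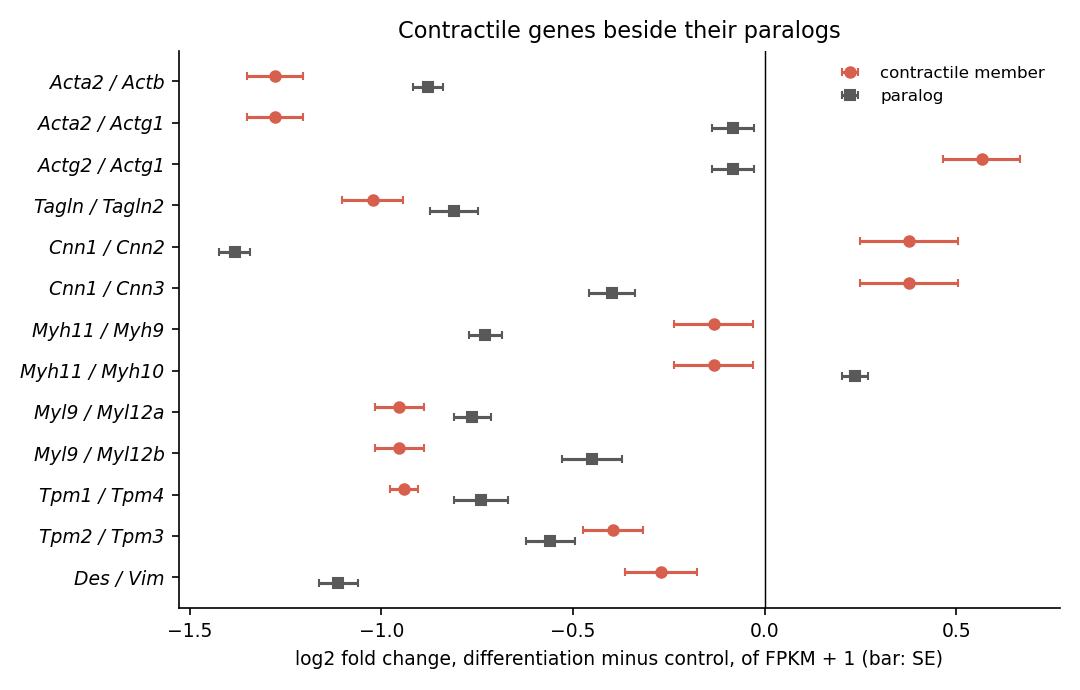
Log2 fold change of FPKM + 1, differentiation minus control, with its SE, for each contractile gene (circles) and a paralog (squares). Acta2 at -1.28 lies beside Actb at -0.88 and Actg1 at -0.08, and Cnn1 at 0.38 lies beside Cnn2 at -1.38.

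Of 20 other tested genes of the smooth muscle contractile apparatus and its cytoskeleton, 10 fell and 2 rose, with a median log2 fold change of -0.36. The shares over protein-coding features were 34.0% lower and 32.5% higher. Flna, filamin A, which cross-links actin, went down from 118 ± 1.15 to 52.8 ± 2.90 FPKM, Csrp1, a LIM protein of smooth muscle, from 22.2 ± 1.24 to 10.3 ± 0.626 FPKM, and Vcl, vinculin of adhesion sites, from 44.4 ± 0.433 to 30.2 ± 0.594 FPKM (SD, n = 2 per group). Smtn, smoothelin, fell by 1.03 and Mylk, the myosin light chain kinase, by 0.32 on the log2 scale. Hspb6, a small heat shock protein, rose to 5.44 ± 0.135 FPKM from 1.12 ± 0.260 in control (SD, n = 2 per group; log2 fold change 1.61, limma adjusted p = 0.00104), and Nexn rose by 0.43 on the log2 scale. Lmod1, leiomodin, was at 0.833 and 0.503 FPKM in control and 0.542 and 0.684 FPKM in differentiation, and its groups overlapped. Kcnmb1, the smooth muscle subunit of a potassium channel, did not exceed 0.164 FPKM. Without control replicate 1 the number that fell was 6, and without differentiation replicate 1 or 2 the number that rose was 1.

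Regulators of the SRF pathway fell in 12 of 16 tested genes and rose in 1, with a median of -0.50. Beside this stand 34.0% of protein-coding features called lower and 32.5% called higher. Srf itself was at 14.8 and 14.7 FPKM in control and 8.94 and 7.56 FPKM in differentiation (log2 fold change -0.77, SE 0.08; limma adjusted p = 0.00286). Of its coactivators, Mkl2 fell by 0.40 on the log2 scale, while Mkl1 was not called (log2 change -0.15, adjusted p = 0.0626 by limma). Myocd, myocardin, the coactivator most tied to smooth muscle, was at 0.288 and 0.264 FPKM in control and 0.272 and 0.191 FPKM in differentiation and was not tested. Elk4, a ternary complex factor that shares SRF sites, fell by 0.63. Klf4 and Foxo4, known as repressors of the smooth muscle program, had log2 changes of -1.12 and -1.18, and Tcf21, a factor of mesenchymal progenitors, of -1.44; all 3 were called lower. The gene that rose was Mef2a, by 0.36.

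Signalling and calcium genes of contraction went both ways, with 7 of 21 tested lower and 8 higher and a median of -0.10. These counts lie near the shares over protein-coding features, 34.0% lower and 32.5% higher. Calm2 and Calm3, whose protein activates the light chain kinase and serves many other pathways, rose: Calm2 from 101 ± 5.46 to 288 ± 1.41 FPKM and Calm3 from 45.6 ± 0.588 to 112 ± 2.17 FPKM (SD, n = 2 per group). Edn1, endothelin, a peptide that contracts smooth muscle, fell most in the list, from 12.1 ± 0.745 to 1.76 ± 0.00375 FPKM (SD, n = 2 per group), while its receptor Ednra was not called (log2 change -0.31, adjusted p = 0.0501 by limma). The calcium channel Cacna1c and the calcium release receptor Itpr1 fell by 0.68 and 0.87, and the calcium pump Atp2a2 rose by 0.58 on the log2 scale. Rhoa fell by 0.28, and the kinases it activates, Rock1 and Rock2, had log2 fold changes of 0.01 and -0.10 (limma adjusted p = 0.794 and 0.0504). The sign for Rock1 was negative under median centring, quantile normalization and limma-voom, and without control replicate 1. After quantile normalization Rock1 was called lower, with a log2 change of -0.14 (limma adjusted p = 0.0339).

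Markers of peritubular cells without a contractile role fell in 17 of 20 tested genes and rose in 2, with a median of -0.98. Over protein-coding features the shares were 34.0% lower and 32.5% higher. Pdgfra and Pdgfrb, the receptors for platelet-derived growth factor, fell from 18.9 ± 0.863 to 10.2 ± 0.277 FPKM and from 7.49 ± 0.214 to 1.77 ± 0.141 FPKM (SD, n = 2 per group). Inhba, an activin subunit, fell by 1.76 and Cxcl12, a chemokine, by 0.99 on the log2 scale. Lif, a cytokine, rose by 0.93 on the log2 scale.

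Markers of other cell types were read in the same libraries, where 34.0% of protein-coding features were called lower and 32.5% higher. Fibroblast and matrix genes fell in 16 of 17 tested and rose in 0, with a median of -1.38. Their summed level over 18 genes was 548.8 to 559.8 FPKM in control and 215.5 to 221.7 FPKM in differentiation, and Col3a1 and Col6a1 fell by 2.17 and 2.03 on the log2 scale. Pericyte and vascular smooth muscle markers fell in 6 of 9 tested and rose in 1, with a median of -1.11 and a summed level over 13 genes of 89.4 to 90.5 FPKM in control and 31.4 to 32.9 FPKM in differentiation. Mcam alone gave a mean of 63.6 FPKM of that sum in control and 20.95 FPKM in differentiation. Mcam and Cspg4 fell by 1.56 and 1.56 on the log2 scale. Of the 13 genes, 4 were under 1 FPKM in all libraries. Among these was Rgs5, a defining pericyte gene, which stayed at or under 0.158 FPKM in every library. These lists share Pdgfra, Pdgfrb, Nr2f2, Tcf21 and Notch3 with each other or with the regulators and peritubular markers, and Thy1 with the spermatogonial list, so their counts are not independent.

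Of the 21 striated muscle genes in the table, 19 were under 1 FPKM in all libraries and none was at 0 in all 4. Their summed level was 9.84 to 10.2 FPKM in control and 7.19 to 7.77 FPKM in differentiation. For the counts that follow, 34.0% of protein-coding features were called lower and 32.5% higher. Sertoli cell markers fell in 5 of 14 tested and rose in 5 (median 0.00, summed level over 16 genes 178.1 to 180.2 and 177.8 to 191.0 FPKM). Leydig cell markers fell in 2 of 4 and rose in 1 (median -1.31, summed level over 7 genes 37.4 to 38.4 and 21.4 to 21.6 FPKM). Macrophage and leukocyte markers fell in 10 of 13 and rose in 2 (median -1.12, summed level over 15 genes 74.7 to 78.0 and 24.1 to 24.6 FPKM), and endothelial markers fell in 3 of 7 and rose in 0 (median -0.23, summed level over 11 genes 19.5 to 19.9 and 10.6 to 11.5 FPKM). Undifferentiated spermatogonia markers fell in 14 of 18 tested and rose in 1 (median -1.11), and spermatocyte and spermatid markers rose in 14 of 14 (median 2.12, summed level over 15 genes 169.9 to 173.4 and 1246 to 1266 FPKM). The part of any of these cell types in the change of the contractile genes was not tested.

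**Figure D4:**
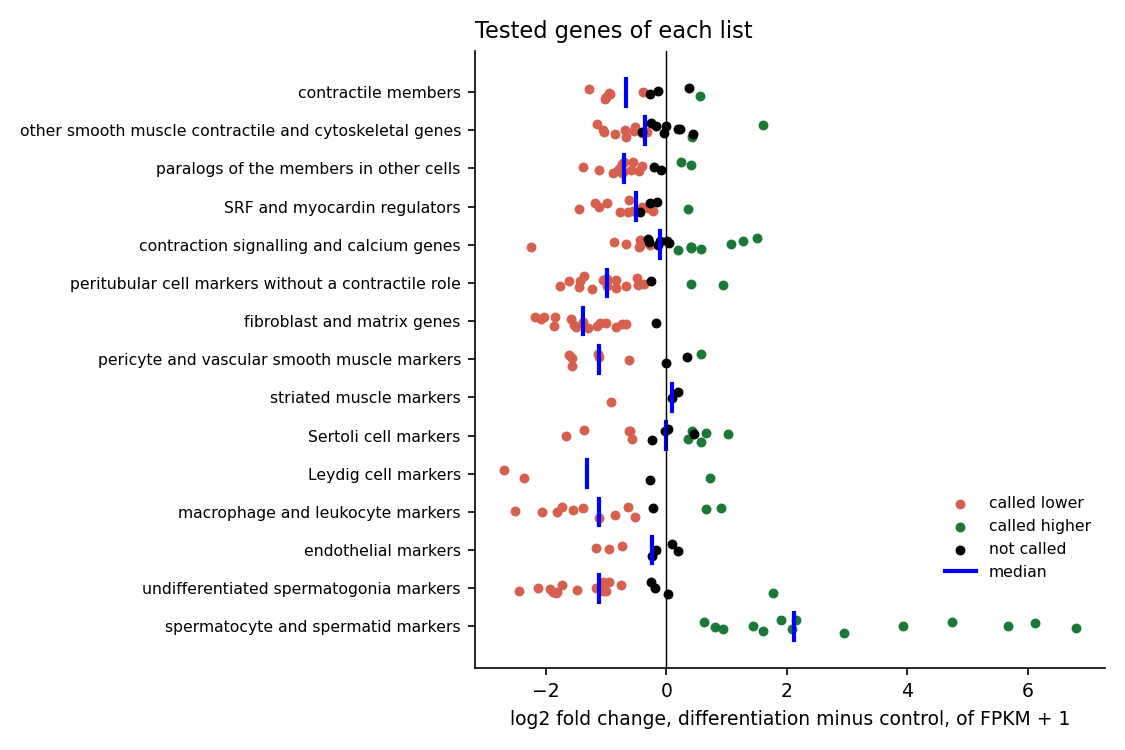
Log2 fold change of FPKM + 1, differentiation minus control, of each tested gene of each list (points, jittered vertically, coloured by the limma call), with the list median as a blue line. The contractile members have a median of -0.67, against -1.38 for fibroblast and matrix genes and 2.12 for spermatocyte and spermatid markers.

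Fzd2, Snn, Gpt2 and Igsf9 were among the 5 protein-coding genes whose deviations from their own mean over the 4 libraries lay nearest to those of Acta2, at Euclidean distances of 0.0415 to 0.0759 on the log2(FPKM + 1) scale. Fzd2, a Wnt receptor and the nearest, was at 9.03 and 8.67 FPKM in control and 3.27 and 2.87 FPKM in differentiation. Gpt2 codes for the mitochondrial alanine aminotransferase. With 4 libraries in 2 groups this measure mostly ranks genes by the size of the group difference. Among 12856 such genes ranked by distance, Tagln, Cald1, Myl9 and Tpm1 came 349th, 451st, 611th and 742nd. Tpm2 came 3417th, Myh11 5372nd, Cnn1 9497th and Actg2 10394th, and Des was under the level of 1 FPKM needed for this ranking.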

How the data were processed

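The labels' protocols name TRIzol for extraction and removal of ribosomal RNA before library construction, for all 4 libraries. The submitters' processing notes name HISAT2 and GRCm38; annotation, counting tool and strand setting are not given there. Deposited values were FPKM from the authors for each feature in each library, with the authors' log2 fold change, p-value and adjusted p-value from a test the table does not name.

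FPKM was multiplied by merged exonic length in GENCODE M21 (31517 of 31600 identifiers matched). A scale per library was then found at which 96.2% of features under 300 fragments were whole within 0.05. Acta2 and Myh11 did not come out whole, so no fragment numbers are printed for them. Groups were compared two-sided on log2(FPKM + 1) with limma, version 3.58.1 under R 4.3.3, with group as its only term and a prior variance that follows mean level. It covered the 23138 features whose mean reached 0.5 FPKM, with Benjamini-Hochberg adjustment, a threshold of 0.05, and 2 residual and 2.14 prior degrees of freedom. The pseudocount understates the change of low genes. Where a symbol had more than 1 row, the row of higher mean was used. The test was tried on simulated data for this comparison (23138 features), where it called 40% of those given a 1.25-fold change, 82% for 1.5-fold and 100% for 2-fold and 4-fold, and 11 that were given none. The features given a change, 50 at each fold, all rose and lay above 1 on the log2(FPKM + 1) scale. Simulated noise depended on mean level alone. In the libraries 56.6% of features were called, in both directions, so the simulated shares may not carry over to them.

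The members and lists were chosen with earlier results of these data known. Named genes were all members, their paralogs, up to 4 tested genes of each list with the smallest p, and the 5 genes nearest to Acta2 in pattern. Other genes of the lists, and genes that overlap a member, were named after their values were seen. A few genes that this rule covers are not reported here. The closing section gives the alternatives. Python 3.11.15, numpy 2.4.6, pandas 2.3.3 and matplotlib 3.10.9 served for the other steps.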

Additional observations from a re-analysis of the deposited data

How the results depend on the processing

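Under all 12 alternatives (pseudocount 0.1, no filter, a mean of at least 2 FPKM, median centring, quantile normalization, no intensity trend, a replicate block, limma-voom on recovered fragments, and leaving out each of the 4 libraries) Acta2, Cald1, Tagln, Tpm1 and Myl9 were called lower. Their log2 fold changes ranged from -1.38 to -0.88. The members called higher numbered 0 at a mean of at least 2 FPKM, where Actg2 was not tested, 2 with limma-voom, and 0 to 1 when a library was left out. Among the paralogs 1 was called higher with quantile normalization. Leaving out each library gave 6 to 8 lower and 1 to 2 higher calls among the other smooth muscle genes, beside 10 and 2 with all libraries, and 1 to 2 higher calls among the paralogs. The sign turned for 5 genes that were not called with all libraries. These were Ppp1r12a after median centring (-0.026) and quantile normalization (-0.095), Rock1 after the same steps (-0.062 and -0.14, the latter called lower by limma with an adjusted p of 0.0339) and with limma-voom (-0.014), and Tnnt1 after quantile normalization (-0.022). Leaving out each library gave -0.017 to 0.041 for Rock1, -0.032 to 0.021 for Jph2 and -0.19 to 0.10 for Lmod1. Causes were not tested.

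The labels do not say that replicate numbers pair libraries, and deviations of same-numbered libraries had a correlation of -0.000408. With the replicate block 6 members were lower and 1 was higher, and 5788 features were lower and 6510 higher, beside 6246 and 6848 without it. Neither median centring nor quantile normalization moved the median of all features by more than 0.0976, but 45.5% and 43.2% of the calls were then higher, beside 52.3% without them. Depth limits Actg2, Cnn1 and Des, which rest on 23 to 83 fragments a library.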
